A study of Mus musculus with 2 samples.

Results

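The genes described here form the core of the p53 pathway: Trp53, which encodes the transcription factor p53, its regulators Mdm2 and Mdm4, and 7 genes that p53 activates (Cdkn1a, Ccng1, Bax, Bbc3, Sesn1, Sesn2 and Gdf15). They were matched by gene symbol in the deposited files, and all 10 were found among the 24421 genes listed. The data are 2 libraries of messenger RNA sequenced from its 3' ends. The cells were 3T3-L1, a preadipocyte line of mouse origin that turns into fat cells in culture. The DF library came from cells kept in DF, a mixture of several herbs (DF-GA70 in the sample title), and the control library from cells without it. Both cultures were at passage 10 to 13, carry the strain label C57BL/6, and were differentiated with insulin, dexamethasone and the phosphodiesterase inhibitor IBMX in medium with fetal bovine serum. How much DF was added and how long after induction the cells were harvested is not stated in the labels. There was 1 library a group, so no value has a replicate error and no test between the groups was made.

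The p53 protein switches on genes that arrest the cell cycle, start apoptosis or adjust metabolism after stress. Mdm2 is a ubiquitin ligase that binds p53 and sends it for degradation, and the Mdm2 gene is itself switched on by p53, which closes a feedback loop. Mdm4 is a relative of Mdm2 that binds p53 and blocks its activity. Because p53 is controlled mainly at the protein level, the mRNA of Trp53 is not a measure of its activity. As background, an amplification of the Mdm2 gene has been reported in 3T3-L1 preadipocytes. Gene copy number was not measured here.

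A p53 binding site is made of 2 elements of 10 bases that may be parted by up to 13 bases. The 250 bases before each RefSeq transcript start of the 10 genes (16 starts, GRCm38.p6) were searched for the element, which reads the same on both strands. Only exact matches to RRRCWWGYYY were taken, where R is A or G, W is A or T and Y is C or T. At least 1 element was present before 6 of the 16 starts, in Cdkn1a, Bax, Sesn1, Mdm2, Ccng1 and Trp53. Over all 32851 starts in the table, 7.13% had an element and 0.0639% a full site. The only full site among the 16 lay before the upstream start of Cdkn1a. That start lies 2790 bases upstream of the other Cdkn1a start. The sequences of Cdkn1a, of Mdm2, the most abundant of the genes, and of Bax and Sesn1, which were among those higher in the DF library, are shown 5' to 3' with the elements in capitals.
Cdkn1a, upstream start, chr17:29090729-29090978, plus strand: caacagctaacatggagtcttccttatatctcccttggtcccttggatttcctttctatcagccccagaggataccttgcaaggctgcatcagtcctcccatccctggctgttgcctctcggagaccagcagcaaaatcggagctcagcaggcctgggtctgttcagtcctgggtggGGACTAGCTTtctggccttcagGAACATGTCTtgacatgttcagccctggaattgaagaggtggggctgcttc
Mdm2, chr10:117710759-117711008, minus strand: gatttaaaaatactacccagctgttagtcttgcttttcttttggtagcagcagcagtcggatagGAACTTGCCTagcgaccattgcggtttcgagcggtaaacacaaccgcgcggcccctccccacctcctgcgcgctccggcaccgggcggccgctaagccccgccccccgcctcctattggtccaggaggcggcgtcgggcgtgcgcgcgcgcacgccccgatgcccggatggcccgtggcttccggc
Bax, chr7:45466899-45467148, minus strand: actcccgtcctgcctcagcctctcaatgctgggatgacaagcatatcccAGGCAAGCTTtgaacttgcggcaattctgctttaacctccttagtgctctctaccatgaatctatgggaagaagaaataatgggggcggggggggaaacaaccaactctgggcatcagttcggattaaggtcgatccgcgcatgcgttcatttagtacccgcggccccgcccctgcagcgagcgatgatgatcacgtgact
Sesn1, downstream start, chr10:41887189-41887438, plus strand: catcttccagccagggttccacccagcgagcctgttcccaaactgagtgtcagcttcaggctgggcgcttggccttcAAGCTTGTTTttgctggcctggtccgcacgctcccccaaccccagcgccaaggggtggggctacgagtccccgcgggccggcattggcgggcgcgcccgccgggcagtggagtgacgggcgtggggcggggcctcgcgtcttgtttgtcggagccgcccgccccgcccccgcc
The exact matches of the Cdkn1a site begin 73 and 51 bases before the start and are 12 bases apart. Directly after the second one, tgacatgttc departs from the pattern at its first base only and so was not marked. Pairings with such inexact elements were not searched. Single elements begin 186 bases before the start in Mdm2, 201 in Bax and 173 in Sesn1. A match describes these letters and does not show binding. A start without a match, as in Gdf15, Bbc3, Sesn2 and Mdm4, says only that the letters are not in this window.

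The deposited values are log2 levels whose distribution looks to have been made alike in both files, and sequencing depth is unknown. Of the genes listed, 12337 were above 0 in the DF library and 13013 in the control library. The highest 140 values, sorted, are the same numbers in both files. Of the 10 genes, Mdm2 alone lies in that range in both libraries. Below it, equal ranks also gave equal values: rank 927 was 11.84 for Rpl5 in the DF library and Cdkn1a in the control library. Rank 4232 was 9.31 for Asns in the DF library and Zmat3 in the control library. The differences and folds given below therefore follow ranks on a shared scale and are not measured folds. All 9 adipocyte markers examined, among them Adipoq and Fabp4, were between 11.84 and 17.55 in the DF library and between 11.94 and 17.55 in the control library. The preadipocyte markers Dlk1, Pdgfra and Ly6a were lower in the DF library, and the summed linear level of that list of 4 was 0.190% of all values in the DF library and 0.519% in the control library. Nearly all of that sum is Dlk1, at 15.10 in the DF library and 16.55 in the control library, values that are set by rank. In the 3 lists for macrophages, endothelium and muscle, no gene exceeded 6.54 in either library. Kdr, Tek, Adgre1, Myog and Myod1 were listed at 0 in both. The part that differentiation state plays in the differences below was not tested, and in such bulk samples fewer cells of a type and less RNA per cell cannot be told apart.

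Among the 10 genes, Sesn1, Bax and Gdf15 were higher in the DF library by at least 1.5-fold, and no gene was lower by that factor. Mdm4 and Ccng1 differed by less than 0.10 log2 units, and Mdm2 held the same rank in both libraries. A gene was examined when it reached a level of 8.18, the median of all values above 0, in at least 1 library. Of the 10 genes, 8 did so, and 3 of these 8 were at least 1.5-fold higher, against 10.2% of all 6761 genes examined. None of the 8 was lower, against 10.9% of all genes examined. Sesn1 reached the floor only in the DF library, so the rule fixed the direction of its difference and not the size. Of genes at the floor in both libraries, 7.64% were higher and 8.13% lower, and of the 7 such members 2 were higher and 0 lower. Trp53 and Sesn2 stayed below the floor in both libraries. The median difference of the 10 genes was 0.36 log2 units, and that of all genes examined was 0.01. These 10 genes were put together with results of these libraries known, so the median and counts describe them and support nothing further.

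**Figure D1:**
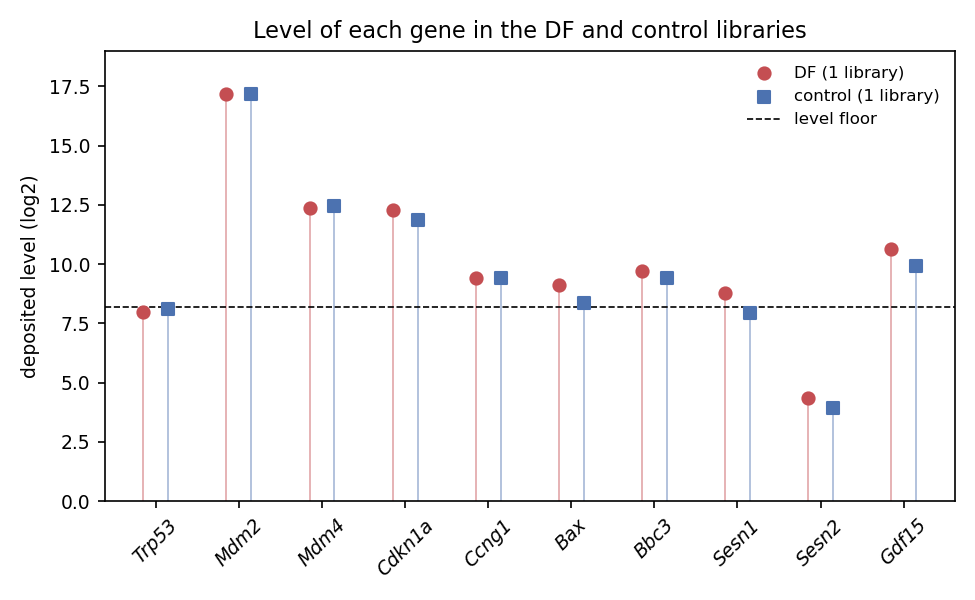
Deposited log2 level (y axis) of Trp53, Mdm2, Mdm4 and 7 p53 target genes in the DF library (circles) and the control library (squares), 1 library each. Mdm2 stands at 17.19 in both libraries, and the dashed line marks the level floor of 8.18, which Trp53 and Sesn2 do not reach.

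The order of the levels was nearly the same in both libraries. The kit reads 1 end of each transcript, so levels of different genes are compared on this 3'-end scale without a length correction. Whether the deposited values had been scaled by length is not stated. In both libraries Mdm2 came first, followed by Mdm4, Cdkn1a and Gdf15, and Sesn2 came last. Bbc3 lay above Ccng1 in the DF library and just below it in the control library. Sesn1 lay above Trp53 in the DF library and below it in the control library. With 1 library a group, it cannot be said which neighbours in this order differ beyond their spread.

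Trp53 mRNA was close to the middle of the distribution and differed little between the libraries. Its level was 7.96 in the DF library and 8.10 in the control library, a difference of -0.13. It ranked 6730 in the DF library and 6490 in the control library, and both values lie just below the level floor. Trp53 spans chr11:69580359-69591873 on the plus strand (GRCm38), starts 104 bp from the Wrap53 gene on the other strand, and has a processed pseudogene on chromosome 17. Of its relatives, Trp63 was at 8.94 in the DF library and 8.40 in the control library, and Trp73 was listed at 0 in both.

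Mdm2 ranked 4 from the top of each library. Its level was 17.19 in the DF library and 17.19 in the control library, which is 0.778% of the summed linear values in each. Equal values in this range mean equal ranks and do not show equal amounts. The value of the third gene, Lpl, was 17.55 in both libraries, and the value at rank 5 was 17.01. Before normalization, Mdm2 lay somewhere between its neighbours in rank in each library, and how far it differed between the libraries cannot be read from these values. The 3 genes with values closest to those of Mdm2 over the 2 libraries were Atp5g3, Psap and Lpl, at distances of 0.39, 0.44 and 0.51 log2 units. This likeness rests on 2 libraries only.

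Mdm4 was also abundant, at 12.38 in the DF library and 12.47 in the control library, a difference of -0.09. Its rank was 597 in the DF library and 549 in the control library. Mdm2 exceeded Mdm4 by 4.81 log2 units in the DF library (a linear ratio of 28.0) and by 4.72 in the control library (26.3). Mdm2 exceeded Trp53 by 9.22 log2 units in the DF library (a linear ratio of 598) and by 9.09 in the control library (545). Both inhibitors of p53 had far higher deposited levels than Trp53 in each library. Since the value of Mdm2 is set by its rank, the ratios to Mdm2 describe each library and do not compare the libraries. Mdm4 (chr1:132959484-133030561, minus strand) contains a processed pseudogene on the other strand and has a processed pseudogene copy on chromosome X, so its reads are less certain.

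The levels of genes around Mdm2 on chromosome 10 varied widely. Mdm2 spans chr10:117688875-117710758 on the minus strand, and 11 other protein-coding genes lie wholly within 500 kb of it. Slc35e3, the next gene upstream of Mdm2 and a member of a solute carrier family, was at 14.89 in the DF library and 15.58 in the control library. It ranked 64 in the DF library and 32 in the control library, within the range of identical sorted values. Of the other genes, Rap1b, which encodes a small GTPase, was at 9.85 in the DF library and 9.81 in the control library.

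On the far side of Slc35e3, Nup107, which encodes a nuclear pore protein, was at 7.58 in the DF library and 9.25 in the control library, 3.18-fold lower in the DF library. Cpm, a carboxypeptidase gene whose 3' end faces that of Mdm2 at a distance of 1523 bp, was at 6.92 in the DF library and 7.64 in the control library. Cpsf6 was at 9.17 in the DF library and 9.44 in the control library. Yeats4 was at 9.14 in the DF library and 9.20 in the control library, and Mdm1 was at 7.06 in the DF library and 7.49 in the control library. High 3'-end levels in this window were seen for Mdm2 and Slc35e3 and not for the genes on either side of them. Of the 11 neighbours, 5 reached the level floor, and 2 of these 5, Slc35e3 and Nup107, had values at least 1.5-fold lower in the DF library, against 10.9% of all genes examined. None was higher, against 10.2%. The Slc35e3 and Nup107 values are set by rank, so their differences are not measured folds. Nup107 reached the floor only in the control library, so the rule fixed the direction of its difference and not the size. Lyz1, Il22 and 9530003J23Rik were listed at 0 in both libraries, and Lyz2 was at 3.52 in the DF library and listed at 0 in the control library.

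**Figure D2:**
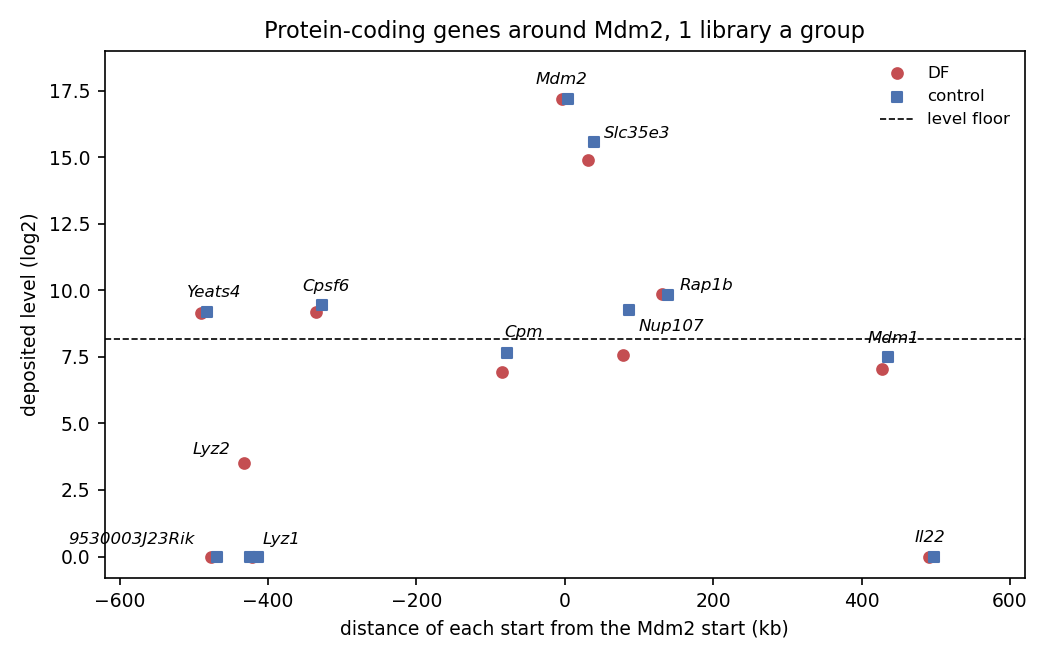
Deposited log2 level (y axis) of protein-coding genes within 500 kb of Mdm2, placed by the distance of their starts from the Mdm2 start in kb (x axis, toward higher coordinates to the right), in the DF library (circles) and the control library (squares). Mdm2 at 17.19 in both libraries and Slc35e3 at 14.89 with DF and 15.58 in the control stand above the other genes, none of which exceeds 9.85.

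The cell cycle targets were at or slightly above their control level. Cdkn1a, which encodes the cyclin-dependent kinase inhibitor p21, was at 12.26 in the DF library and 11.84 in the control library, 1.34-fold higher with DF and within the 1.5-fold limit. Its rank was 659 in the DF library and 927 in the control library. Among genes with a mean level of 11 to 13, 6.21% were at least 1.5-fold higher and 6.81% at least 1.5-fold lower. Cdkn1a spans chr17:29090976-29100727 on the plus strand.

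Ccng1, which encodes cyclin G1, was at 9.42 in both libraries, with a rank of 4025 in the DF library and 4023 in the control library. Its paralog Ccng2 was at 10.13 in the DF library and 9.64 in the control library. Cdkn1b, which encodes the related inhibitor p27, was at 8.81 in the DF library and 9.19 in the control library. The distance between Cdkn1a and Cdkn1b was therefore 3.45 log2 units in the DF library and 2.65 in the control library. Cdkn1c was listed at 0 in the DF library and stood at 4.33 in the control library. Of the 6 genes in the list of p53 family members and paralogs, 3 were examined and 0 differed by 1.5-fold. Over all genes examined, 10.2% were higher and 10.9% lower.

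Of the apoptosis genes, Bax was higher in the DF library and Bbc3 was within the limit. Bax, a BCL2 family protein that opens the outer mitochondrial membrane, was at 9.11 in the DF library and 8.37 in the control library. The difference was 0.74 log2 units, or 1.67-fold. Among genes with a mean level of 8 to 9, where Bax and Sesn1 lie, 12.9% were at least 1.5-fold higher. Bax spans chr7:45461697-45466898 on the minus strand and overlaps the predicted coding gene Gm45808 on the same strand. Bbc3, which encodes the BH3-only protein PUMA, was at 9.73 in the DF library and 9.41 in the control library, 1.25-fold higher with DF. Among genes with a mean level of 9 to 10, where Bbc3 and Ccng1 lie, 9.15% were at least 1.5-fold higher.

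The rest of the BCL2 family held 13 listed genes, of which 7 were examined and 0 differed by 1.5-fold. Over all genes examined, 10.2% were higher and 10.9% lower. The median difference of the family was 0.14 log2 units over the 10 genes above 0 in both libraries. Bad, a BH3-only gene and the most abundant, was at 11.97 in the DF library and 11.98 in the control library. Bcl2l1, which encodes the protective BCL-XL, was at 11.52 in the DF library and 11.10 in the control library, 1.34-fold higher with DF. Bcl2l1 exceeded Bax by a linear ratio of 5.30 in the DF library and 6.62 in the control library. Pmaip1, which encodes the p53-induced BH3-only protein NOXA, was listed at 0 in both, as were Bik and Hrk.

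The sestrin gene Sesn1 showed the largest difference of the 10 genes, and Sesn2 was near the bottom of the scale. Sestrins are stress-induced proteins that restrain the growth kinase mTORC1. Sesn1 was at 8.77 in the DF library and 7.93 in the control library, a difference of 0.84 log2 units or 1.80-fold. It lies at chr10:41809935-41908424 on the plus strand, starts 64 bp from Cep57l1 on the other strand, overlaps the annotated transcript 9930024M15Rik on the same strand, and was below the level floor in the control library. Sesn2 was at 4.33 in the DF library (a linear value of 20.1) and 3.92 in the control library (15.1). At this level the difference of 0.41 is a step of a few units, and its rank percentile was lower in the DF library. Sesn3 was at 7.40 in the DF library and 7.09 in the control library, below the floor in both.

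Gdf15, which encodes a secreted stress cytokine that acts on appetite, was at 10.65 in the DF library and 9.93 in the control library. The difference was 0.72 log2 units, or 1.65-fold, and the rank was 2112 in the DF library and 3139 in the control library. Among genes with a mean level of 10 to 11, 7.05% were at least 1.5-fold higher. Gdf15 spans chr8:70629393-70632456 on the minus strand, with no other annotated gene within 2000 bp.

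Sesn2 and Gdf15 are also switched on by ATF4 in the integrated stress response. The list for that response, which holds both genes, is therefore described here. Of 9 genes examined, Gdf15 alone was higher by 1.5-fold and 0 were lower, against 10.2% and 10.9% of all genes examined. The median over the 10 listed genes above 0 in both libraries, Sesn2 and Gdf15 included, was -0.02 log2 units. Atf5 was at 15.58 in the DF library and 15.01 in the control library, and Atf4 was at 15.26 in the DF library and 14.95 in the control library. Both lie in the range of identical sorted values and, like the others, follow rank only. Atf3, named after its values were seen, was at 5.83 in the DF library and listed at 0 in the control library.

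**Figure D3:**
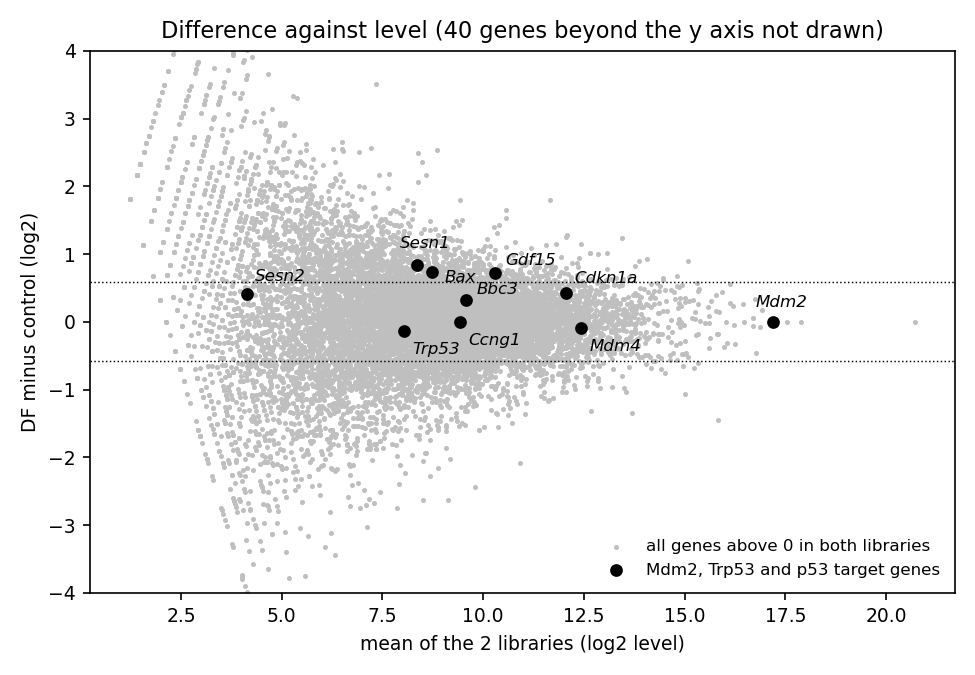
Difference between the DF and the control library (y axis, log2, DF minus control) against the mean log2 level of both (x axis) for all genes above 0 in both libraries (grey) and the 10 genes (black, named). Dotted lines mark 1.5-fold. Sesn1, Bax and Gdf15 lie above the upper line, at 0.84, 0.74 and 0.72, within the spread of grey points at their level.

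Other genes known as direct p53 targets did not share 1 direction among those above 0 in both libraries. Of 28 genes in that list, 12 were examined. Of these 12, 4 were at least 1.5-fold higher, against 10.2% of all genes examined, and 0 were lower, against 10.9%. Of the 4, 3 did not reach the level floor in the control library, and their DF values alone brought them into the count. The 23 genes above 0 in both libraries had a median difference of -0.28 log2 units, with 10 genes above 0 and 13 below. Ephx1, a microsomal epoxide hydrolase gene, was at 9.07 in the DF library and 7.42 in the control library, 3.14-fold higher with DF. Gls2, a glutaminase gene, was at 8.30 in the DF library and 6.98 in the control library, 2.50-fold higher with DF. Rrm2b, which encodes the p53-inducible subunit of ribonucleotide reductase, was at 8.84 in the DF library and 7.93 in the control library, 1.88-fold higher with DF. The fourth gene, Rps27l, named after its values were seen, was at 10.17 in the DF library and 9.52 in the control library, and is a close copy of a ribosomal protein gene.

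The most abundant genes of that list were within the limit. Phlda3, an inhibitor of AKT signalling, was at 10.71 in the DF library and 11.01 in the control library. Ei24 was at 10.87 in the DF library and 10.92 in the control library. Eda2r and Gtse1, named after their values were seen, were listed at 0 in the DF library and stood at 5.34 and 4.58 in the control library. Perp, Pidd1 and Pmaip1 were listed at 0 in both.

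Cell cycle genes that are lowered when p53 acts through p21 were mostly below the level floor. Of 13, 3 were examined, 1 of them was higher by 1.5-fold and 0 were lower, against 10.2% and 10.9% of all genes examined. The median over the 10 above 0 in both libraries was 0.07 log2 units. The higher gene, Ccna2, which encodes cyclin A2, was at 8.42 in the DF library and 7.68 in the control library, below the floor in the control. E2f1 was at 9.86 in the DF library and 9.96 in the control library. Cdk1 was at 8.53 in the DF library and 9.11 in the control library, a difference of -0.58 and just inside the limit.

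Genes that act on p53 went in both directions. Of 19 in the list, 14 were examined. Of these 14, 2 were at least 1.5-fold higher, against 10.2% of all genes examined, and 2 were lower, against 10.9%. The median over the 18 genes above 0 in both libraries was -0.16 log2 units. Hipk2, a kinase that phosphorylates p53, was at 13.17 in the DF library and 12.15 in the control library, 2.02-fold higher with DF. Rchy1, which encodes the p53 ubiquitin ligase PIRH2, was at 10.69 in the DF library and 9.93 in the control library, 1.69-fold higher with DF.

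Both lower genes encode ribosomal proteins that bind Mdm2. Rpl23 was at 12.68 in the DF library and 13.28 in the control library, 1.52-fold lower. Rpl5, named after its values were seen, was at 11.84 in the DF library and 12.44 in the control library, 1.51-fold lower. Rpl11, the partner of Rpl5 in binding Mdm2, was at 9.50 in the DF library and 9.57 in the control library. Ribosomal protein genes have many processed pseudogenes, so their reads are less certain.

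Cdkn2a, whose ARF product binds Mdm2 and whose other product is the kinase inhibitor p16, was abundant. It was at 13.92 (rank 148) in the DF library and 14.16 (rank 118) in the control library. Read counts at the 3' end do not separate its products. Usp7, which encodes a deubiquitinase of Mdm2 and p53, was at 9.97 in the DF library and 9.83 in the control library. Atm, the kinase gene that responds to DNA breaks, was at 8.96 in the DF library and 8.95 in the control library.

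**Figure D4:**
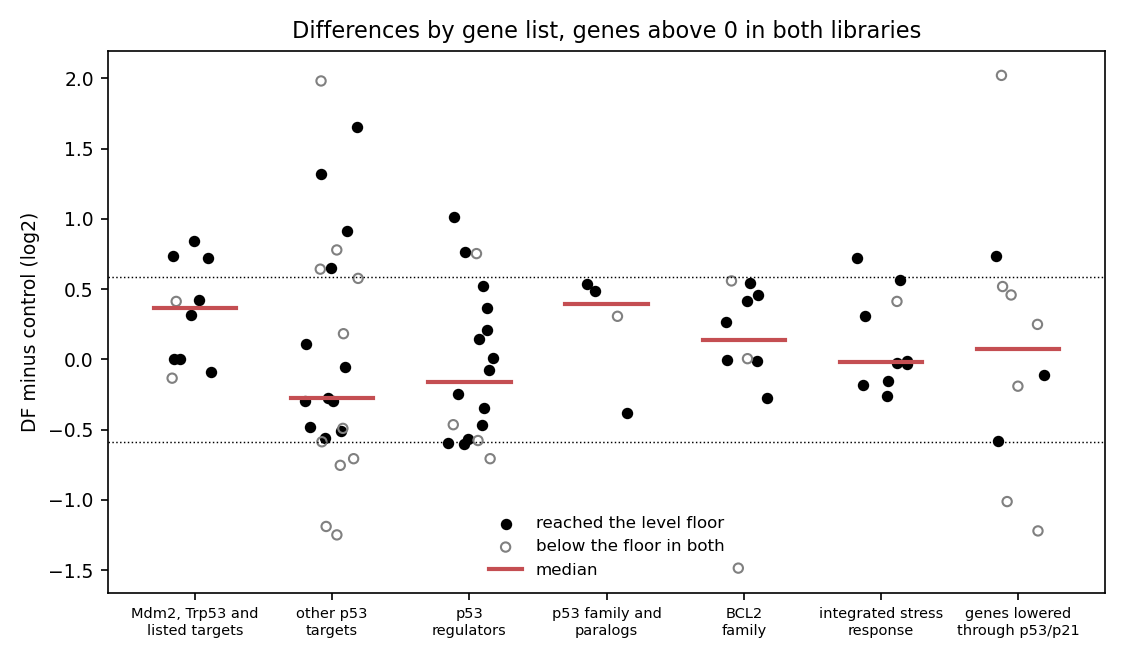
Difference between the DF and the control library (y axis, log2, DF minus control) for each gene above 0 in both libraries, by gene list (x axis). Filled points reached the level floor, open points did not, red bars are medians and dotted lines mark 1.5-fold. The median is 0.36 for the 10 genes, -0.28 for other p53 targets and -0.16 for p53 regulators.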

How the data were processed

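The 2 libraries (DF and control, 1 each) were prepared with a Lexogen 3'-end kit (500 ng of input RNA) and sequenced as single reads of 75 nt, per the labels' protocols. Bowtie2, edgeR and the mm10 build are listed without versions or roles in the submitters' processing notes. Not stated there are the counter, the annotation, the strand setting and the normalization. The deposited values are log2 levels per gene symbol, with no replicate and no depth. All linear values under 1000 fall within 0.001 of a multiple of 1/8 and the highest 140 sorted values match between the files, so the authors' values appear to be quantile normalized. This removes differences in total output and sets values by rank, and no counting interval can be given. Which libraries entered that step is not stated, so the shared scale may not come from these 2 alone.

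The control level was subtracted from the DF level (log2, no pseudocount) with Python 3.11.15, pandas 2.3.3 and numpy 2.4.6. Linear values are antilogs (base 2). With 1 library a group there is no test: a gene was examined at a level of at least 8.18 (290.75 linear) in at least 1 library and counted at a difference of 1.5-fold. The 6761 genes examined include 1 gene listed at 0 in 1 library. Counting was tested on simulated data without noise, which checks the rule and says nothing of its error with 1 library a group. Named are all 10 genes, in each related list the 2 most abundant and, of those counted, the 3 that differed most, protein-coding genes within 500 kb of Mdm2, and the 3 genes closest to Mdm2. Other genes given with values, such as list members with a known tie to one of the 10, were picked after their values were seen. The genes and lists were chosen with earlier results of these data known. Positions are from GENCODE vM21 on GRCm38, the assembly of mm10, and promoter sequences from RefSeq on GRCm38.p6, where all 10 symbols matched. Alternatives covered the floor, the fold limit, centring, a pseudocount of 16 and ranks.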

Additional observations from a re-analysis of the deposited data

How the results depend on the processing

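No paired analysis was possible because each group holds 1 library, and no library could be left out. The count of 3 higher genes among the 10 was 3 without a floor, with centred differences and with a pseudocount of 16, and 2 with the floor reached in both libraries, where Sesn1 is not examined. At a fold limit of 2 the count was 0. The count of lower genes was 0 under all 5 alternatives. Over all genes, 693 higher and 735 lower became 453 and 482 with the floor reached in both libraries and 173 and 217 at a fold limit of 2, since fewer genes pass each rule. The median difference of the 10 genes ranged from 0.26 with a pseudocount of 16 to 0.36 log2 units. Sesn1, Bax and Gdf15 kept their direction and their side of 1.5-fold under both centrings and the pseudocount, and their direction in percentile rank. The centrings and the pseudocount shift genes at these levels little, Sesn1 from 0.84 to no less than 0.80. They could therefore hardly change these calls. In percentile rank Sesn2 was lower in the DF library, by -2.30 points, and the equal values of Mdm2 became a difference of -0.0013 points, since the libraries hold different numbers of genes above 0. Depth is unknown and limits genes as low as Sesn2 most.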
